A study of Mus musculus with 17 samples.

Results

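The genes described here encode the proteins of the cytosolic ribosome. They were chosen by symbol, as every row of the expression table named Rpl or Rps with a number and at most one of the letters a, x or l, together with Rplp0, Rplp1, Rplp2 and Rpsa. S6 kinase genes, Rps27l and names marked -ps, for pseudogene, were left out. The rule found 80 of the 37620 genes in the table, 49 of the large and 31 of the small ribosomal subunit. Each was read alone and, as a check, summed with its copies elsewhere in the genome.

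RNA was sequenced from 17 libraries of C57BL/6J mouse macrophages that had been grown out of bone marrow for 7 days in macrophage colony-stimulating factor at 50 ng/ml. There were 5 control libraries with wild-type Smad3, 4 wild-type libraries treated with transforming growth factor beta 1 (TGF-β1), 5 control libraries labelled Smad3 knockout and 3 labelled knockout with TGF-β1. Smad3 relays TGF-β signals to the genome, and the study asks about its role when macrophages turn into myofibroblasts, the contractile cells that lay down scar matrix. The same treatment protocol, 5 ng/ml for 5 more days, stands on every sample, so the groups were read from the titles, and how long control cells were kept and how the Smad3 allele was made remain unstated. cDNA was made by SMART-seq2, a full-length method for little RNA. It could not be settled whether a library holds 1 cell or many, and no label names an animal or culture. The p-values below therefore cover only the differences among these libraries and may be technical.

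Values are in TPM, transcript abundance corrected for gene length and scaled to the same total in every library, so the read depth behind them is unknown. The libraries held from 7269 to 10307 genes at TPM 1 or more. All 10 macrophage markers passed the expression filter, whereas 5 of 8 fibroblast markers, Col1a1 among them, were listed at 0 throughout and the summed fibroblast markers reached at most 9.72 TPM. Of 7 neutrophil markers, 6 were at 0 throughout. Their sum reached 132 TPM in wild-type controls and 34.6 TPM in knockout controls, and was 0 in every TGF-β1 library. The summed endothelial markers reached at most 27.1 TPM. The part of such cells in the results was not tested. Smad3 itself was listed at 0 or 0.01 TPM in 3 of the 5 wild-type controls, at 11.5 and 15.4 TPM in the others, and at 0 in each of the 4 wild-type libraries with TGF-β1. The controls labelled knockout held at most 1.9 TPM, but 2 of the 3 TGF-β1 libraries labelled knockout held 6.2 and 22.3 TPM, and the third held 0.01 TPM. With TGF-β1, the Smad3 values run opposite to the genotype labels. They cannot settle whether the labels hold, since a 0 can be a failed estimate and the allele is unstated. Every direction between genotypes below rests on the labels, whatever short name a library is given. In 6 libraries over 10% of the genes that averaged 10 to 50 TPM in the other libraries of the group were listed at 0. These were wild-type controls 3, 4 and 5, wild-type TGF-β1 library 3, knockout control 2 and knockout TGF-β1 library 2, and results were also computed without them, a choice made after seeing the data.

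As background, each ribosome carries one copy of nearly every one of these proteins, and cells make them in matched amounts. Their mRNAs typically begin with a short run of pyrimidines, the 5′ terminal oligopyrimidine (TOP) tract, through which growth signals acting on the mTOR kinase and the RNA-binding protein Larp1 set how fast they are translated. Their abundant mRNAs have been reverse transcribed into the genome many times, and the copies, called processed pseudogenes, are unusually numerous for this class of gene.

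Start regions from RefSeq (GRCm38.p6) were matched by symbol for 58 of the 80 genes. A run of at least 5 C or T letters, opening with C within 5 bases of the annotated start on the gene's own strand, was present in 27 of the 58 (46.6%). The same pattern was found in 21.1% of 26967 other genes, in 23.8% of the 8313 of them that passed the expression filter, and in 18.3% of all 32851 start regions. A match is a description of these letters and not a mapped start. The 3 genes with the longest runs counted in this way (20 letters for Rpl27a, 17 for Rpl15 and 16 for Rpl35), and Rps2, which recurs below, are shown with the counted run in capitals. The count opens at the first C inside the 5-base limit, so C letters before that limit stay in lower case for Rpl35, and the Rpl27a run goes on past the end of the printed stretch. Each stretch covers 30 bases, at chr7:109519180-109519209 (plus strand) for Rpl27a, chr14:18270972-18271001 (minus) for Rpl15, chr2:39005117-39005146 (minus) for Rpl35 and chr17:24720048-24720077 (plus) for Rps2.
Rpl27a: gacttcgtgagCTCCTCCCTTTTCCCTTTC
Rpl15: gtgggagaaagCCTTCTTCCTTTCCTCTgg
Rpl35: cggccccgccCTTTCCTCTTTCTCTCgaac
Rps2: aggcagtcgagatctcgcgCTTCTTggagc

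Nearly all ribosomal protein genes were expressed in every library. Of the 80, 76 reached TPM 1 in at least 3 libraries and were tested, 46 of the large and 30 of the small subunit, and 75 were at TPM 1 or more in all 17 libraries. The 75 spread by a median within-group standard deviation (SD) of 0.42 on the log2(TPM + 1) scale. Of these, 37 shared a band of mean level with 635 other genes. Within that band the median SD was 0.41 for the ribosomal protein genes and 0.54 for the others. The 5 genes outside this set of 75 are relatives of other ribosomal protein genes whose symbols end in l. Rpl3l, the striated muscle form of Rpl3, was listed at 0 in 14 libraries and passed the filter through values of 2.42, 2.83 and 2.33 TPM in the other 3. Rpl10l, a testis form, was listed at 0 everywhere, Rpl39l reached 0.29 TPM and Rpl6l 1.99 TPM, each at most. Rps4l was listed at 0.49 and 27.9 TPM in knockout controls 2 and 5 and at 0 in the other libraries.

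The highest mean log2(TPM + 1) was that of Rplp0, the base of the stalk through which elongation factors dock, at 10.61. Rps19, the gene most often mutated in Diamond-Blackfan anaemia, followed at 10.17, then Rpl41, the shortest protein of the ribosome, at 10.03, Rpl32, a common reference gene, at 9.95, and Rpl19 at 9.93. Rplp0 ranged from 1114 TPM in wild-type TGF-β1 library 4 to 2009 TPM in library 3 of that group, and the ranges of the 4 groups overlapped. The other stalk genes lay lower, Rplp1 at 367 to 1170 TPM and Rplp2 at 188 to 591 TPM. Rpsa, a small subunit protein also known as the laminin receptor precursor, ranged from 98.4 to 303 TPM.

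Among genes named for their roles, Rpl4, which lines the exit tunnel, ranged from 532 to 1250 TPM, and Rpl13a, known from translational control in interferon-treated monocytes, from 355 to 696 TPM. Rps3, at the mRNA entry site, ranged from 310 to 791 TPM, and Rps14, whose partial loss is known from a form of myelodysplastic anaemia, from 523 to 1223 TPM. Rps4x, encoded on the X chromosome, ranged from 421 to 1098 TPM, and Rps6, the substrate of the S6 kinases, from 191 to 383 TPM. Rpl11, which with Rpl5 binds the p53 regulator Mdm2, ranged from 132 to 405 TPM. Rpl22, which is dispensable for translation in general but needed by developing T cells, ranged from 62.0 to 238 TPM. The smallest within-group SDs were those of Rps9 (0.21), Rps16 (0.22), Rpl13 (0.24), Rplp0 (0.25) and Rpl36 (0.25). The largest belonged to Rpl27a (1.49), Rpl15 (1.21), Rpl5 (1.13), Rpl27 (0.84) and Rpl10a (0.80), and every one of these 5 has 85.3% or more of its total in copies, as described next.

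Among the 76 tested genes, the lowest by mean log2 level, apart from Rpl3l, were Rpl5 (3.53), Rpl27a (4.64), Rpl29 (4.70) and Rpl31 (4.73). Rpl5, an essential protein of the large subunit, averaged 18.9 TPM against 1583 TPM for Rplp0. In the same libraries Gm15500, a processed pseudogene whose sequence is identical to the whole Rpl5 coding sequence, averaged 603 TPM. To account for such copies, the coding sequence of each gene was aligned with all other annotated transcripts, and those matching on the same strand at 90% identity or more over at least 80% of the coding sequence were taken as copies. This found 547 copies, 534 of them annotated as a kind of pseudogene, of 70 of the 80 genes. Of the copies, 478 were above 0 in some library, 93 averaged at least TPM 1 and 37 at least 100 TPM. Only 153 carry a -ps name.

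Copies held between 31.6% and 36.6% of the summed TPM of genes and copies in a library. For 25 of the 75 genes the copies held more of the family total than the gene itself, for 36 they held under 10%, and 18 genes have a copy with an identical coding sequence. Rpl21 had most copies, 43, followed by Rpl29 with 33. By share in -ps names, the top genes were Rpl31 (94.6% of the total), Rpl15 (91.8%) and Rps13 (90.9%). For Rpl5 the -ps names held 0.72% and all sequence copies 97.0%, so names alone missed its main copy. Among the most abundant copies were Rpl10-ps3 at a mean of 1388 TPM, Rps2-ps13 at 994 TPM and Rpl15-ps3 at 783 TPM. How the authors' RSEM run divided reads between a gene and a near-identical copy cannot be seen in TPM. Single values of such genes are therefore uncertain, and the family total is given beside only some of them. Among genes given above by their own values only, copies held 70.4% of the family total for Rps6, 62.7% for Rpsa and 61.0% for Rpl11.

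Summed with their copies, the 75 genes lay much closer together. Mean log2 levels of the genes alone ran from 3.53 to 10.61 with an SD across genes of 1.5, and those of the family totals from 7.08 (Rpl22) to 10.68 (Rpl41) with an SD of 0.71. Alone, 12 genes averaged under 100 TPM. Of the family totals, 0 did. Rpl10, a late-joining protein at the subunit interface, went from a mean log2 of 8.05 alone to 10.64, between Rpl41 and Rplp0, which stayed at 10.61. The median within-group SD went from 0.42 to 0.39, and for the 25 genes with more in copies than in the gene from 0.62 to 0.40. The plot of each gene alone against its family total shows this narrowing.

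**Figure D1:**
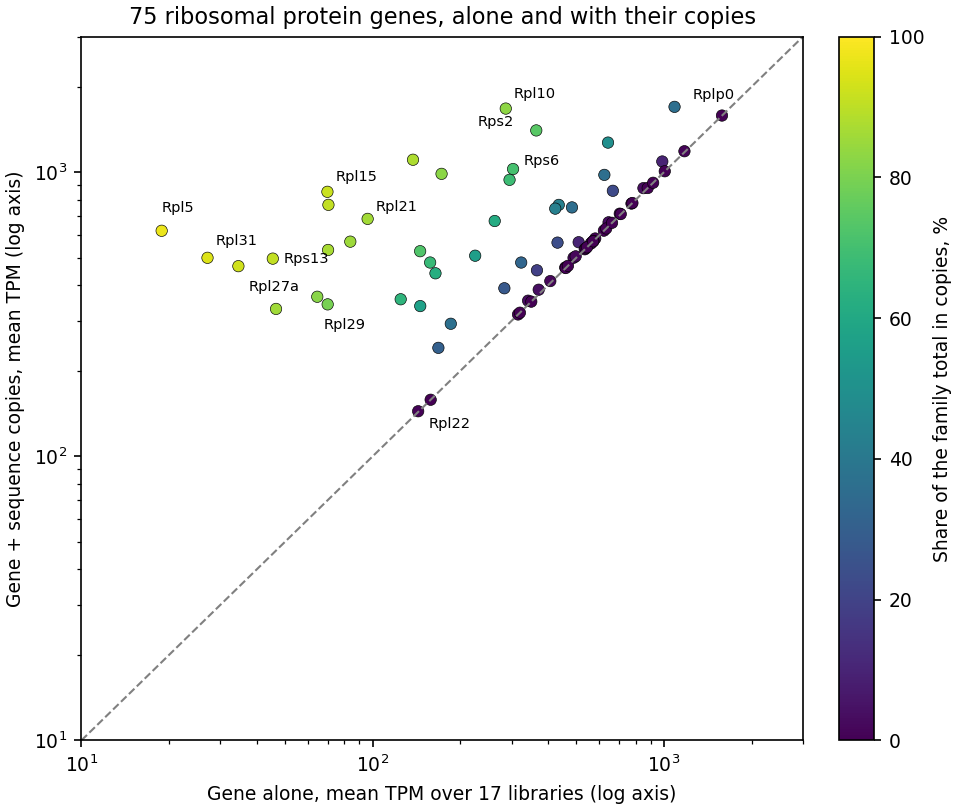
Mean TPM over 17 libraries of 75 ribosomal protein genes, alone (horizontal, log axis) and summed with all copies found by sequence (vertical, log axis); colour gives the percent of the total held by copies and the dashed line marks equal values. Genes on the line have almost nothing in copies, while Rpl5, at 18.9 TPM alone, reaches 622 TPM with its copies.

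Together the 80 genes made up 2.30% to 4.18% of all TPM per library, or 3.45% to 6.43% when all copies were added. In wild-type controls 1 to 5 the genes alone held 3.34%, 2.89%, 3.67%, 3.12% and 3.47%, a mean of 3.30% ± 0.30 (SD, n = 5). The wild-type TGF-β1 libraries held 3.58%, 3.27%, 3.13% and 2.81%, a mean of 3.20% ± 0.32 (SD, n = 4). The knockout controls held 4.12%, 4.18%, 3.66%, 3.18% and 2.30%, a mean of 3.49% ± 0.78 (SD, n = 5). The knockout TGF-β1 libraries held 3.26%, 2.36% and 2.57%, a mean of 2.73% ± 0.47 (SD, n = 3). All 4 groups overlapped, and the knockout controls alone contained both the highest libraries (1 and 2) and the lowest (5). The large subunit genes held 1.29% to 2.29% and the small subunit genes 1.01% to 1.94%.

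**Figure D2:**
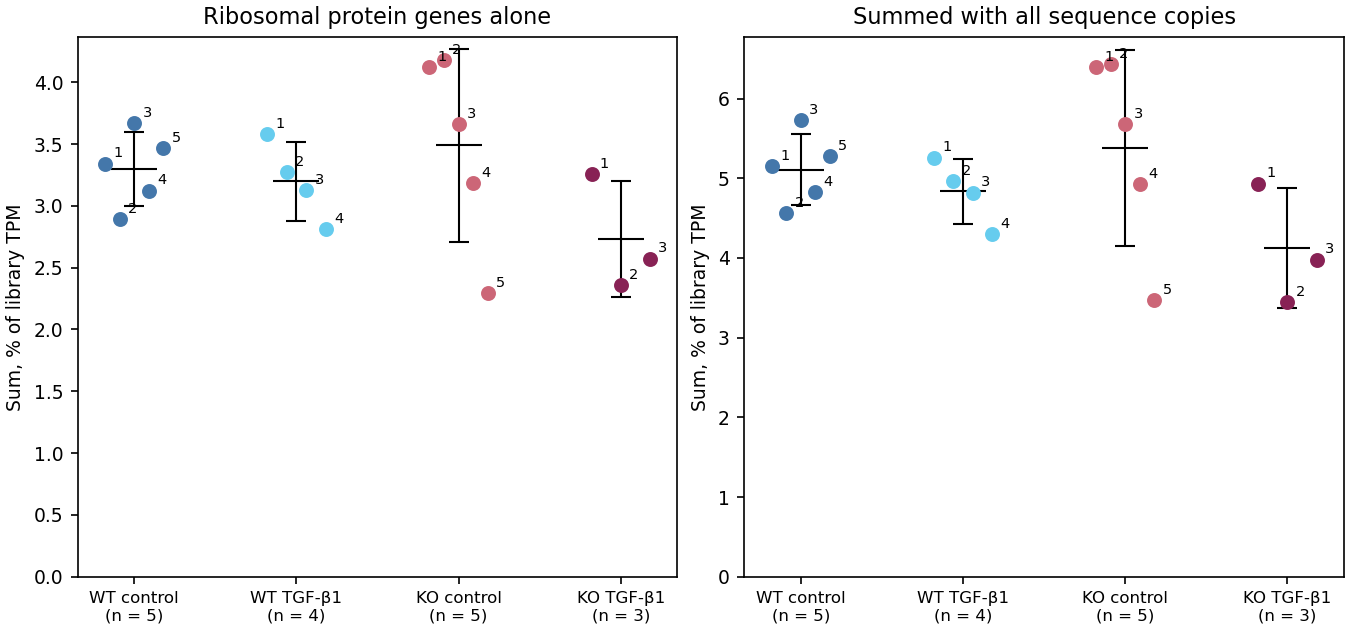
Summed ribosomal protein TPM as percent of the library total, for the genes alone (left) and with all sequence copies (right), with libraries grouped by their labels (KO for knockout, WT for wild type); each numbered point is a library and the bars show mean ± SD. The knockout controls span 2.30% to 4.18% for the genes alone and overlap every other group.

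Many of the genes lay low, or high, in the same libraries. In knockout control 5, 69 of 75 family totals lay below their own mean over the 17 libraries, and in knockout TGF-β1 libraries 2 and 3, 72 and 66 did. In knockout controls 1, 2 and 3 the numbers were 0, 6 and 7. The mean log2(TPM + 1) of the 10 macrophage markers was highest of all libraries in knockout control 5 (9.60), and lowest in knockout control 1 (7.54), wild-type control 2 (7.58) and knockout control 2 (7.73). Wild-type control 2, among the lowest in these markers, had 47 of 75 totals below their mean. Knockout TGF-β1 library 2 stood at 8.80 in the markers, and wild-type control 1, at 9.02, had 30 totals below. The part of the markers in these values was not tested. Each of knockout control 5 and knockout TGF-β1 library 2 held the lowest value of 21 families, and knockout control 2 held the highest value of 29. Knockout control 2 and knockout TGF-β1 library 2, at opposite ends, both belong to the libraries with over 10% of such genes at 0 (13.9% and 11.9%). The heat map of family totals shows these libraries as columns of one colour.

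**Figure D3:**
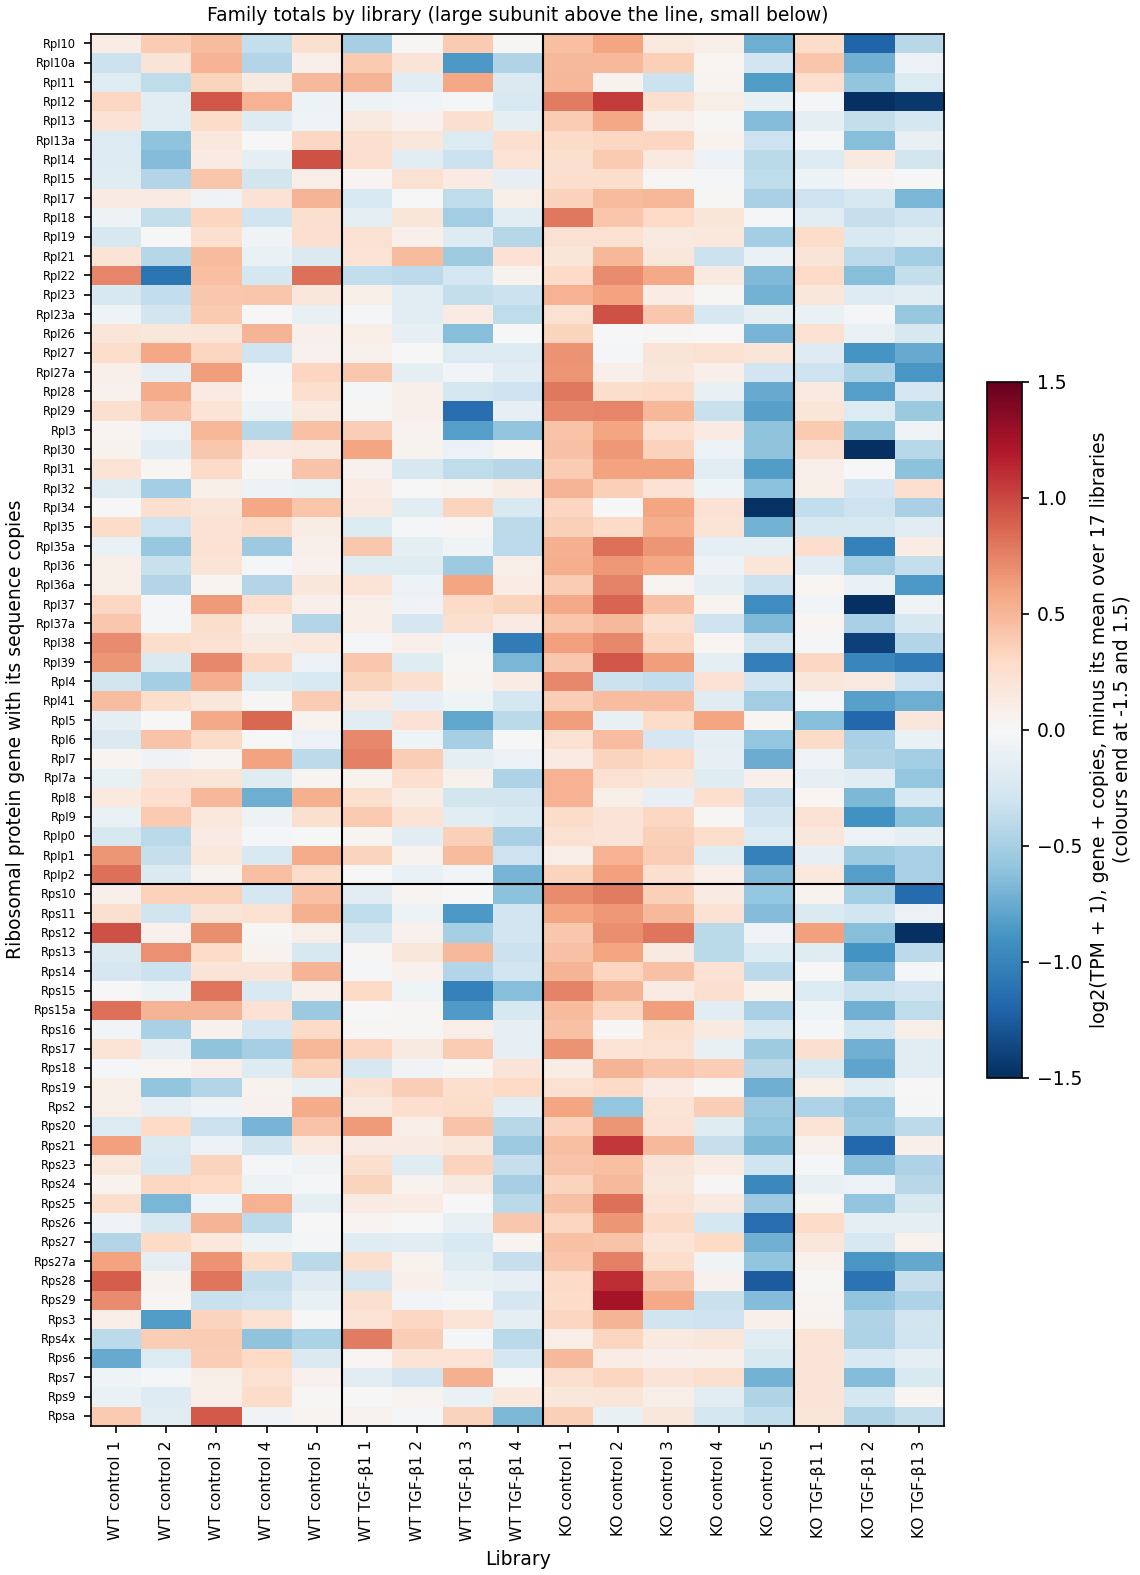
Log2(TPM + 1) of 72 ribosomal protein genes summed with their copies, minus each row's mean over 17 libraries, with 44 large subunit genes above the black line and 28 small subunit genes below it; columns are libraries, grouped as labelled. Knockout controls 1 and 2 are mostly red (above the mean), and knockout control 5 and knockout TGF-β1 library 2 mostly blue (below it); 4 of the 1224 cells lie beyond the colour range.

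In wild-type cells, TGF-β1 gave no called change in a ribosomal protein gene. The median log2 difference of the 76 tested genes was -0.10, against 0.09 over all 12158 tested genes, and 46 of 76 lay below 0 (55 of 76 under upper-quartile scaling). limma called 0 of 76 at an adjusted p under 0.05, with a background of 0.181% of all genes called, 0.107% higher and 0.074% lower. Below 0 lay 45.9% of all genes. At an unadjusted p under 0.05 there were 2 higher, beside 6.7% of all genes, and 3 lower, beside 3.27%, or 9.97% together. Without wild-type TGF-β1 library 4 the median was -0.03, without control 3 -0.04, without control 5 -0.06, and without the 6 libraries named above -0.03.

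Rps19 was listed at 1219, 760, 843, 1187 and 1060 TPM in the controls and at 1330, 1487, 1368 and 1409 TPM with TGF-β1. Its groups did not overlap, with a log2 difference of 0.49 ± 0.21 (SE) and a limma adjusted p of 0.463. Rpl38, known for selective translation of Hox mRNAs, was listed at 462, 395, 375, 364 and 370 TPM in controls and at 328, 348, 323 and 159 TPM with TGF-β1. Here too the groups did not overlap. These 2 of 76 stand beside 2.79% of all tested genes with groups that did not overlap, 1.8% higher and 0.987% lower. Rpl5 (-3.01) and Rpl10a (-0.86) were among the most negative differences, and Rpl21 (0.78) and Rps19 among the most positive.

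Rpl5 differed most between the gene alone and its family total. Alone it was listed at 30.8, 3.7, 35.1, 57.2 and 29.0 TPM in the wild-type controls and at 1.94, 4.46, 1.36 and 1.36 TPM with TGF-β1, and control 2 lay within the treated range. The log2 difference was -3.01 ± 0.91 (SE; limma adjusted p = 0.227). Its family total was 534, 586, 871, 1068 and 609 TPM in controls and 524, 679, 342 and 442 TPM with TGF-β1. The groups overlapped, and the difference was -0.55 ± 0.30 (SE; limma adjusted p = 0.571). For the family totals as a whole the median was -0.09 with 52 of 76 below 0, against 45.8% of all genes, limma called 0 of 76, with a background of 0.182%, and 3 had an unadjusted p under 0.05, beside 10% of all genes.

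In cells labelled Smad3 knockout, most ribosomal protein genes had lower values with TGF-β1 than without, and none passed the test. The median difference was -0.42, against 0.07 over all tested genes, and 67 of 76 lay below 0 (46.7% of all genes), 40 of 46 large and 27 of 30 small subunit genes. limma called 0 of 76 at an adjusted p under 0.05, with a background of 0.00823%, and the lowest adjusted p of a ribosomal protein gene was 0.603. At an unadjusted p under 0.05, 7 were lower, beside 2.2% of all genes, and 1 higher, beside 3.73%, or 5.93% together. The 7 lower became 21 without knockout control 5, 14 without knockout TGF-β1 library 1, 4 without knockout control 1, knockout control 2 or knockout TGF-β1 library 3, and 2 without knockout TGF-β1 library 2. They became 15 under upper-quartile scaling or with the replicate number as a block, 13 with no expression filter, and 0 without the 6 libraries with many zeros. Summed with copies, the median was -0.37, 71 of 76 lay below 0 (46.4% of all genes), and limma called 0, with a background of 0.0083%. Of the totals, 16 had an unadjusted p under 0.05, 15 of them lower, beside 5.94% of all genes in either direction. The size rested on single libraries. Without knockout TGF-β1 library 2 the median was -0.22 with 59 of 76 below 0, and without the 6 libraries with many zeros it was -0.16 with 57 of 76 below 0.

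Rpl12, whose protein sits at the stalk base, was listed at 253, 292, 141, 132 and 123 TPM in the controls labelled knockout and at 110, 43.8 and 54.2 TPM with TGF-β1. The groups did not overlap, and the log2 difference was -1.45 ± 0.45 (SE; limma adjusted p = 0.603). With its copies it stood at 527, 633, 360, 325 and 284 TPM in controls and at 303, 88.8 and 112 TPM with TGF-β1, so that TGF-β1 library 1 lay within the control range. The family difference was -1.49 ± 0.39 (SE; limma adjusted p = 0.385). Besides Rpl12, the groups did not overlap for Rps13, Rpl36, Rpl18, Rps15 and Rpl31, all lower with TGF-β1. This makes 6 of 76 beside 1.84% of all genes lower and 3.05% higher, or 4.89% together. As family totals, 5 of 76 did not overlap, all lower, beside the same shares of all genes. With copies, Rps13 overlapped, at 361 to 719 TPM in controls and 256 to 422 TPM with TGF-β1. So did Rpl31, at 269 to 732 TPM and 313 to 508 TPM. Alone, Rps13 was listed at 53.2, 43.2, 51.8, 29.5 and 34.9 TPM and then at 28.9, 16.8 and 14.7 TPM. Rpl36 was listed at 536, 569, 534, 342 and 406 TPM and then at 324, 238 and 282 TPM. The nearest values of the 2 groups differed by little for Rps13 (29.5 and 28.9 TPM) and Rpl36 (342 and 324 TPM).

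The most negative differences were those of Rpl5 (-1.83), Rpl12 and Rps12 (-1.36), and the most positive those of Rpl3l (1.22), Rpl15 (0.56) and Rpl10 (0.16). Rpl3l was at 0 in all knockout controls and at 2.83, 0 and 2.33 TPM with TGF-β1, so its value rests on 2 libraries. For Rpl15 and Rpl10 the family differences were -0.04 and -0.56. Markers of dividing cells stood higher with TGF-β1, though none of the 20 was called. Their median difference was 2.49 in wild type and 2.14 in knockout, with 1 of 20 below 0 in each, and their sum was 1373 to 6810 TPM in knockout controls and 5722 to 7656 TPM in knockout TGF-β1 libraries. The mitochondrially encoded genes had a median of -0.54 in knockout, with 31 of 37 below 0. The part of the dividing-cell markers in the ribosomal protein values was not tested. With the mitochondrially encoded genes left out of the total, the median of the ribosomal protein genes in knockout was -0.44.

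The effects of TGF-β1 in the 2 genotypes were not shown to differ. For the difference of effects, knockout minus wild type, limma called 0 of 76 at an adjusted p under 0.05, with a background of 0% (0 of 12158 genes). At an unadjusted p under 0.05 there was 1 higher, beside 2.25% of all genes, and 1 lower, beside 2.43%, or 4.68% together. The median was -0.33, with 60 of 76 below 0 (51.3% of all genes). As family totals, 0 were called, 64 lay below 0 and 2 had an unadjusted p under 0.05, beside 4.65% of all genes. Among the genes alone, Rpl27a had the most negative difference of effects (-1.75 ± 1.42, SE; limma adjusted p = 0.997), followed by Rpl21 (-1.30), and Rpl3l (1.58), Rpl5 (1.18) and Rpl15 (1.05) stood at the other end. The family totals of Rpl27a and Rpl21 gave -0.54 and -0.43. Without knockout TGF-β1 library 2 the median was -0.15, without knockout TGF-β1 library 3 -0.23, and without the 6 libraries with many zeros -0.10.

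Between the genotypes, 3 ribosomal protein genes differed in control cells. Rps2, a small subunit protein near the mRNA entry channel, and Rpl29, a large subunit protein that also binds heparin, were higher in libraries labelled knockout, and Rpl3, which reaches the peptidyl transferase centre, was lower. The other 73 were not called, and the median over the 76 was 0.02, with 36 below 0 (44.3% of all genes), against 0.11 over all genes. That median rested on single libraries, and was 0.14 with 17 below 0 without knockout control 5, -0.05 with 42 below 0 without knockout control 1 and -0.04 with 44 below 0 without knockout control 2. limma called 3 of 76, with a background of 0.148%, of which 0.0823% higher and 0.0658% lower. At an unadjusted p under 0.05 there were 4 higher, beside 3.9% of all genes, and 3 lower, beside 1.92%, or 5.82% together. Control libraries of the genotypes did not overlap for 3 higher genes (Rps2, Rpl29, Rpl21) and 3 lower ones (Rpl3, Rpl26, Rpl30), beside 0.683% and 0.378% of all genes, or 1.06% together.

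Rps2 was listed at 109, 108, 101.3, 144 and 225 TPM in wild-type controls and at 936, 605, 793, 738 and 478 TPM in knockout controls. It rose by 2.39 ± 0.28 on the log2 scale (SE; limma adjusted p = 0.0001). With TGF-β1 it stood at 139, 155, 143 and 109 TPM in wild type and at 547, 396 and 472 TPM in knockout, a rise of 1.78 ± 0.34 (SE; limma adjusted p = 0.0361). Every knockout library lay above every wild-type library.

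Rpl29 was listed at 5.76, 8.29, 6.04, 6.71 and 4.42 TPM in wild-type controls and at 281, 185, 132, 101.4 and 42.1 TPM in knockout controls. It rose by 4.13 ± 0.61 (SE; limma adjusted p = 0.0013). With TGF-β1 it stood at 6.06, 9.84, 2.25 and 2.74 TPM and at 182, 123 and 92.5 TPM, a rise of 4.54 ± 0.73 (SE; limma adjusted p = 0.0073). Again no knockout library reached down to a wild-type one.

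Rpl3 was listed at 731, 675, 996, 541 and 973 TPM in wild-type controls and at 243, 294, 250, 213 and 167 TPM in knockout controls, and fell by 1.73 ± 0.29 (SE; limma adjusted p = 0.0053). With TGF-β1 it stood at 926, 749, 407 and 467 TPM and at 253, 133 and 202 TPM. The libraries did not overlap there either, with a difference of -1.66 ± 0.35 that missed the threshold (SE; limma adjusted p = 0.0635).

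Under TGF-β1, limma called 2 of 76 between the genotypes, Rps2 and Rpl29, with a background of 0.156%, of which 0.0987% higher and 0.0576% lower. At an unadjusted p under 0.05 there were 3 higher, beside 3.21% of all genes, and 5 lower, beside 2.04%, or 5.25% together. Libraries did not overlap for 4 higher and 7 lower genes, beside 3.15% and 2.34% of all genes, or 5.49% together. The median over the 76 was -0.27, with 58 below 0 (46.6% of all genes), against 0.06 over all genes. It was -0.13 with 48 below 0 without knockout TGF-β1 library 2, -0.41 with 62 below 0 without library 1, and -0.15 with 48 below 0 without the 6 libraries with many zeros. The 5 lower at an unadjusted p became 3, 11 and 3 in turn. Only Rpl29 kept its call when any one of wild-type TGF-β1 libraries 1, 2 and 4, knockout controls 2, 3 and 4, or knockout TGF-β1 libraries 2 and 3 was left out. Without wild-type TGF-β1 library 3, Rpl29 and Rpl3 were called. Without knockout TGF-β1 library 1, and in a fit of these groups only, 0 were called. Without the 6 libraries with many zeros, Rps2 alone was called among the controls and 0 under TGF-β1, with fewer samples in the fit.

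These differences were not seen in the family totals. The summed Rps2 family differed by -0.10 in controls and -0.48 under TGF-β1, the Rpl29 family by -0.03 and 0.10, and the Rpl3 family by 0.06 and 0.16. limma called 0 of 76 family totals in either comparison, with backgrounds of 0.0747% in controls and 0.083% under TGF-β1. Below 0 lay 32 of 76 in controls and 62 of 76 under TGF-β1, beside 44.2% and 46.5% of all genes. At an unadjusted p under 0.05 there were 0 in controls, beside 5.67% of all genes, and 4 under TGF-β1, beside 5.11%. Of the 76 totals, 75 differed by less than 0.5 on the log2 scale in controls and 64 under TGF-β1. Libraries of the genotypes did not overlap for 0 totals in controls and for 4 under TGF-β1, all lower in knockout, where over all tested genes the shares were 1.06% in controls and 2.34% lower or 5.49% in either direction under TGF-β1. Summing with -ps names alone left Rpl29 called in both comparisons, since its main copy, Gm13841, has no such name.

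**Figure D4:**
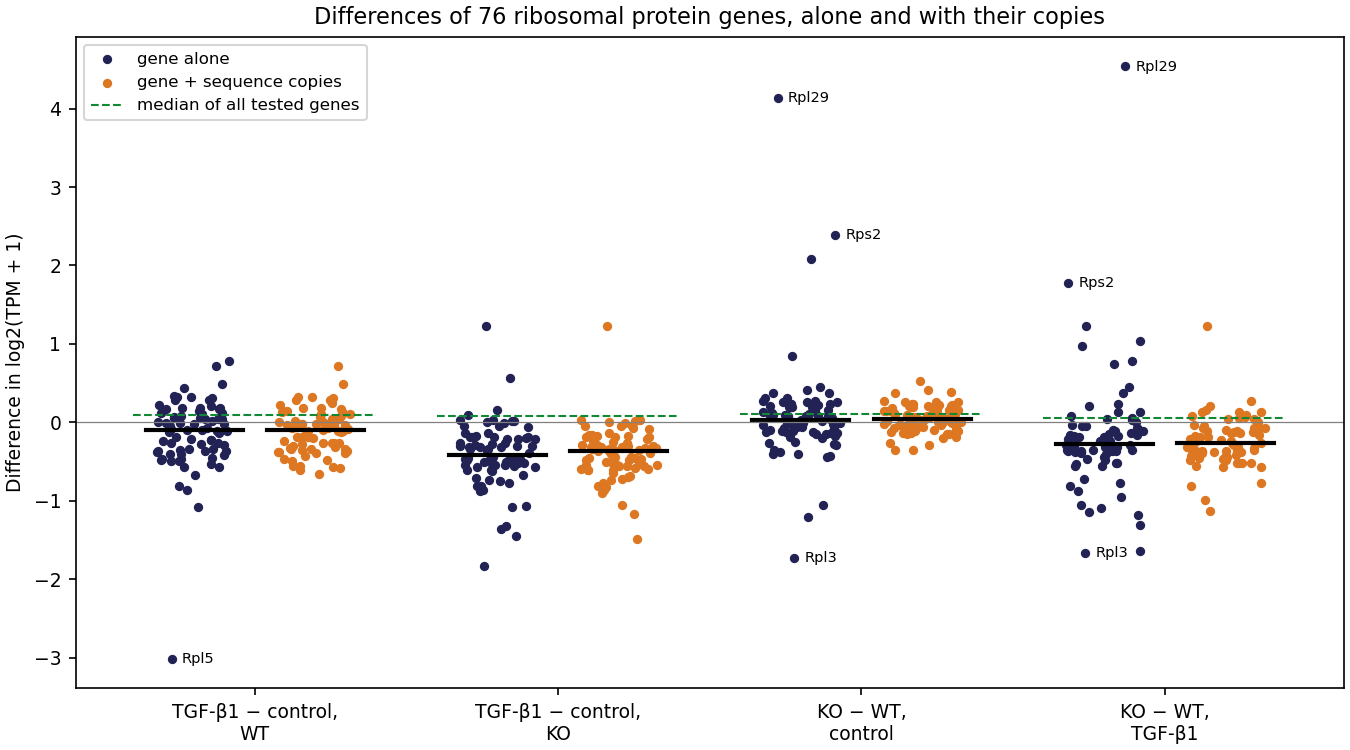
Differences in log2(TPM + 1) of the 76 tested ribosomal protein genes in 4 comparisons, as genes alone (dark) and as family totals (orange); 1 point is a gene, black bars are medians and green dashes the median of all tested genes. Between genotypes, Rps2, Rpl29 and Rpl3 are labelled as genes alone, and Rpl21, which is not labelled, also stands apart in controls. With copies the widest family difference in controls is 0.53.

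Copies within these and other families also differed between genotypes. Among 103 tested copies, limma called 5 in controls and 4 under TGF-β1, beside 0.148% and 0.156% of all tested genes. Genotype cannot be told apart here from any difference in strain background, beyond the shared C57BL/6J label, or in processing between the genotypes' libraries. Rpl3-ps1, on chrX:13202571-13203780 (GRCm38, plus strand), was listed at 6.63, 3.62, 19.2, 0 and 0 TPM in wild-type controls and at 0, 0, 0 and 8.32 TPM with TGF-β1. In knockout it was listed at 720, 788, 609, 567 and 306 TPM in controls and at 688, 339 and 492 TPM with TGF-β1. The log2 difference in controls was 7.26 ± 0.82 (SE; limma adjusted p = 6.0e-05).

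Gm15772, a copy of Rpl26 on chr5:3236431-3236868 (plus), ranged from 0.45 to 16.3 TPM in the 9 wild-type libraries and from 165 to 345 TPM in the 8 knockout libraries. Rpl26 itself, known for binding p53 mRNA, ranged from 354 to 785 TPM and from 174 to 376 TPM, and its difference in controls was -1.21 ± 0.27 (SE; limma adjusted p = 0.101). Rpl35a-ps2, on chr1:181241988-181242320 (minus), ranged from 0 to 17.1 TPM and from 105 to 325 TPM, while Rpl35a ranged from 248 to 472 TPM and from 78.8 to 330 TPM. Rpl34-ps1, on chr6:71124610-71124963 (plus), went the other way, from 191 to 405 TPM in wild type and from 0 to 3.99 TPM in knockout, while Rpl34 ranged from 182 to 282 TPM and from 163 to 685 TPM. Rpl34 lay above all wild-type libraries in every knockout library but control 5.

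In the Rps2 family, Rps2-ps13 on chrX:52898588-52899469 (plus) ranged from 1065 to 1696 TPM in wild type and from 294 to 1086 TPM in knockout, and Gm10420 on chr6:122696001-122696882 (plus) from 42.9 to 70.7 TPM and from 2.62 to 15.1 TPM. In the Rpl29 family, Gm13841 on chr5:115801677-115802159 (minus) ranged from 144 to 428 TPM and from 117 to 351 TPM and overlapped. Rpl21 ranged from 20.2 to 95.0 TPM in wild type and from 86.3 to 256 TPM in knockout, with a difference of 2.08 ± 0.45 in controls (SE; limma adjusted p = 0.0896) and 0.10 for its family. Rpl30 ranged from 127 to 318 TPM and from 17.9 to 166 TPM, with -1.06 alone and 0.04 for its family in controls. The members of these families lie on many chromosomes, with Rpl3 on chromosome 15, Rps2 on 17, Rpl29 on 9 and Rpl26 on 11.

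**Figure D5:**
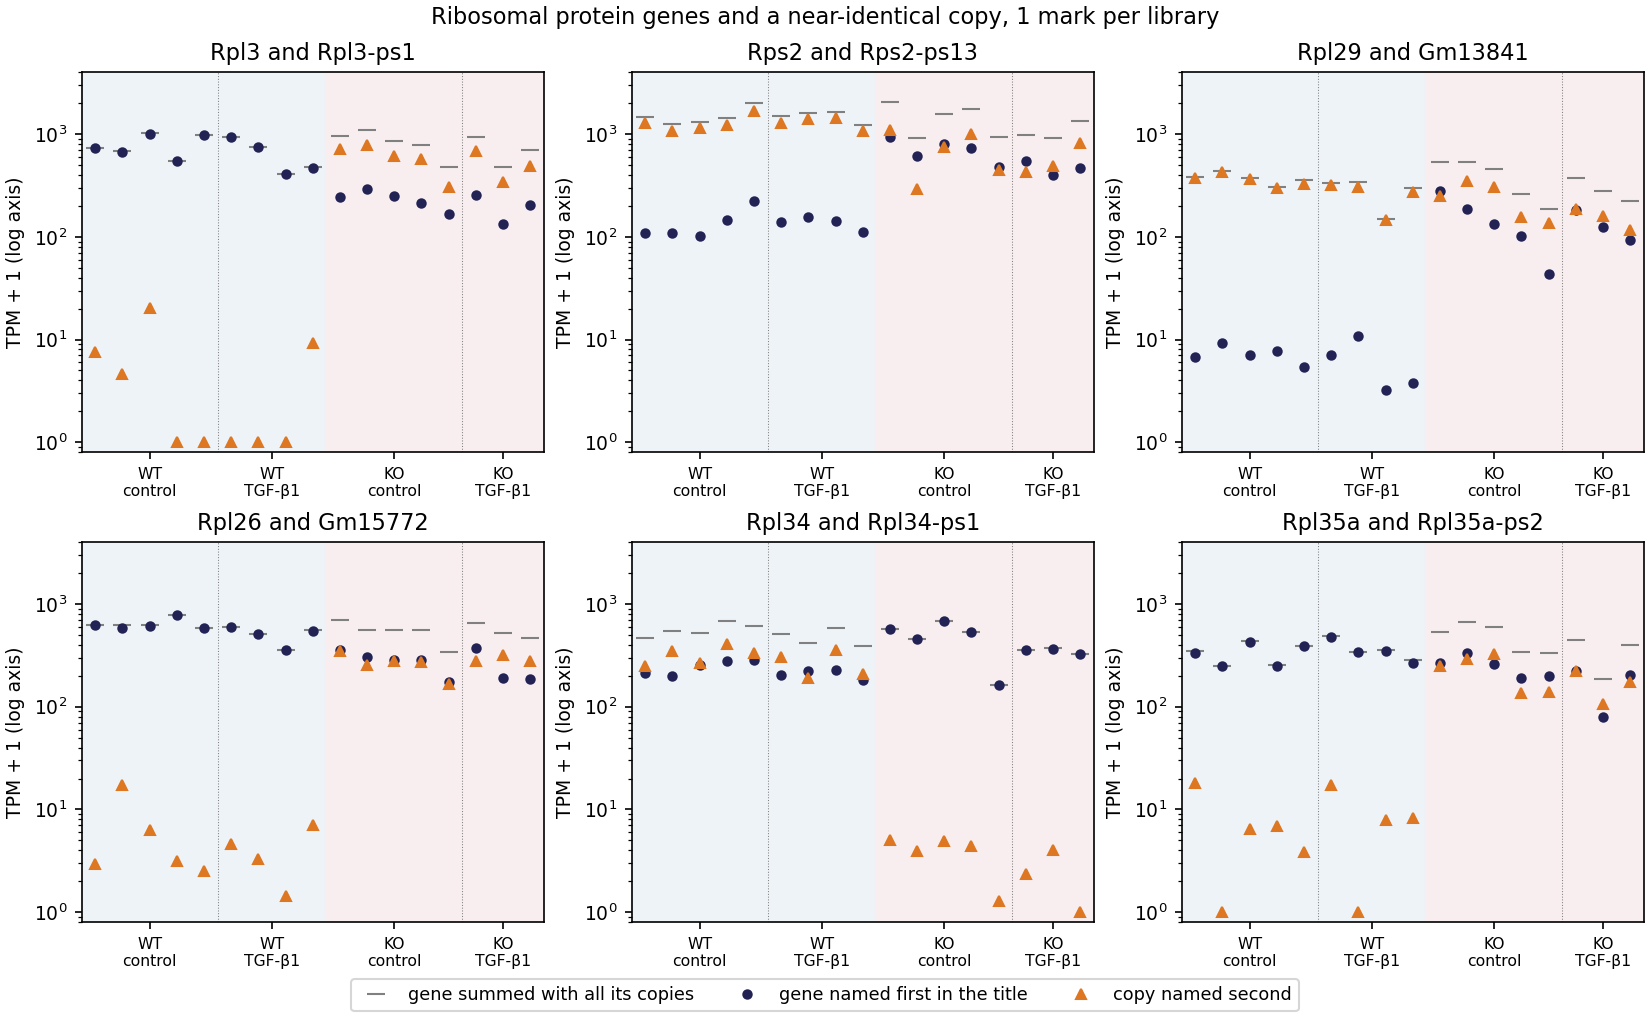
TPM + 1 (log axis) of 6 ribosomal protein genes (dark circles), 1 near-identical copy each (orange triangles) and the gene summed with all its copies (grey dashes), 1 column of marks per library in the order of the groups as labelled; blue shading marks wild type and red shading Smad3 knockout. The gene, the copy or both differ in level between genotypes while the grey dashes overlap, as for Rpl3-ps1, at 0 to 19.2 TPM in wild type and 306 to 788 TPM in knockout.

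Counted over all 17 libraries, 3 of 76 genes had knockout libraries that did not overlap the wild-type ones (3.95%), and 8 of 103 copies did (7.77%). Of all tested genes, 0.23% did, and of the family totals, 0 of 76. The 8 copies were Rpl3-ps1, Gm15772, Rpl35a-ps2 and Rpl14-ps1, higher in knockout, and Rpl34-ps1, Gm10420, Rps19-ps7 and Gm17511, lower. The last 2 and Rpl14-ps1 had low values, Rps19-ps7 at 9.31 to 18.96 TPM in wild type and 0 to 1.89 TPM in knockout, Gm17511 at most 5.26 TPM and Rpl14-ps1 at most 36.8 TPM. These counts reuse the libraries of the comparisons above and are a description of them.

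In the pairs picked below, few bases of the coding sequence tell a gene and its copy apart. Stretches outside the coding sequence were not compared. For 6 genes that, alone or in a copy, stood apart between genotypes, the stretch around the first differing base of the coding sequence is given, with the differing base in capitals. Positions count from 1 at the A of the start codon, and each token gives the gene's base, the position and the copy's base.
Rpl3: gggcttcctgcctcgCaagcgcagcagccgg
Rpl3-ps1: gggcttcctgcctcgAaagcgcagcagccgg
Rps2: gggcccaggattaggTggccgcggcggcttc
Rps2-ps13: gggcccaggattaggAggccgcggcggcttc
Rpl29: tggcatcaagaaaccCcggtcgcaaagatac
Gm13841: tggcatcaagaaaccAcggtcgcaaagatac
Rpl26: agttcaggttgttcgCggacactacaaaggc
Gm15772: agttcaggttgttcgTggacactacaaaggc
Rpl34: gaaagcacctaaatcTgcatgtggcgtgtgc
Rpl34-ps1: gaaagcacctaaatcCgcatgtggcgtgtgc
Rpl35a: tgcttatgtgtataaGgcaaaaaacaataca
Rpl35a-ps2: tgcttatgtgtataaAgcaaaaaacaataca

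Rpl3-ps1 differs from the Rpl3 coding sequence by C57A and T786C alone, Gm15772 from Rpl26 by C177T and T288C, and Rpl34-ps1 from Rpl34 by T132C and C318G. Rpl35a-ps2 differs from Rpl35a by G156A alone, and Gm13841 from Rpl29 by C72A, C300T and T423C. Rps2-ps13 and Rps2 differ at 7 positions. With Gm10163, a copy of Rpl21 that differs by T336C and T432C, these 7 pairs hold 19 substitutions, and all 19 fall on the third base of a codon. Over the 13 gene and copy pairs examined that differ at all, 50 of 76 substitutions did. Gm10420 and Rps19-ps7, which also stood apart between genotypes, are not among the 7 pairs. They differ from Rps2 and Rps19 by 17 and 15 substitutions. Identity over the coding sequence was 99.8% for Rpl3-ps1, 99.7% for Rpl35a-ps2 and 99.2% for Rps2-ps13. These sequences are those of the GRCm38 reference. The libraries' own bases were not analysed here.

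Related genes, from lists chosen with earlier results of these data known, were called in none of the 5 comparisons, and the background in each is that given above. In knockout, TGF-β1 against control, the median difference was -0.43 over 38 ribosome biogenesis genes (32 below 0), -0.41 over 22 initiation factors (17 below 0), -0.32 over 7 elongation factors (6 below 0) and -0.20 over 9 ribosomal proteins outside the symbol rule (8 below 0). It was -0.08 over 11 other TOP mRNAs (10 below 0) and -0.60 over 11 tested regulators of TOP translation (8 below 0). The 77 mitochondrial ribosomal proteins, which are encoded in the nucleus but serve the ribosome of the mitochondrion, had a median of -0.01 with 40 below 0. All genes had 0.07 and 46.7% below 0. In wild type the medians were -0.18, -0.03, 0.10, -0.18, -0.10 and -0.40 in the same order, and -0.01 for the mitochondrial ribosomal proteins.

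Rack1, a scaffold on the small subunit that the symbol rule misses, ranged from 214 to 606 TPM. Rps3a1, also of the small subunit, had a difference of -0.64 ± 0.27 in knockout (SE; limma adjusted p = 0.775), and Rps27l, a p53-inducible relative of Rps27, one of 0.80 ± 0.30 in the other direction (SE; limma adjusted p = 0.744). Among biogenesis genes, Rrp12 had the most negative difference in wild type at -3.84 and Polr1c, a polymerase subunit, the most positive at 2.72. Among initiation factors, Eif3m stood at -1.29 in wild type and -1.21 in knockout. Eef2, which drives translocation, had 0.44 in wild type and 0.30 in knockout. Eif4b, an initiation factor with a TOP mRNA, had -1.01 in knockout.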

How the data were processed

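FastQC, Trim Galore and RSEM on mouse build mm9 are named, per the submitters' processing notes, without versions. The authors deposited 1 table of TPM for 37620 Ensembl gene IDs in 17 libraries. GENCODE vM21 (GRCm38) gave symbols for 32897 IDs and the sequences and coordinates printed. The 4723 unmatched IDs stayed in the tests.

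Members, lists, tests and the rule for named genes were chosen with earlier results of these data known, and the copies, pairs and genes whose groups did not overlap after their values were seen. Genes reaching TPM 1 in at least 3 libraries (12158, or 12055 with family totals) were fitted on log2(TPM + 1), which understates changes of low genes, with limma 3.58.1 in R 4.3.3 over the 4 groups with trended eBayes. Benjamini-Hochberg adjustment ran over all tested genes, with calls under 0.05. The script was tested on simulated data. Copies came from BLASTN 2.17.0 (expectation 1e-10), leaving out protein-coding matches whose coding length differed by over 20%. Named genes were those with known roles, the 5 highest, lowest, most and least variable, the 3 at each end of a comparison, called and untested members, and those with the largest share in -ps copies. Alternatives were other pseudocounts, filters, scalings, covariates, gene sets, sums with copies and left-out libraries. Exact 0 values can be failed estimates. Single values of 3 members are not reported here; they stay in all counts and medians.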

Additional observations from a re-analysis of the deposited data

Results flagged for a closer look

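Within groups of 4 or 5 libraries, 1 library stood apart by Dixon's criterion in 9 of 124 sets of values examined, where chance alone gives about 1 in 20. Among wild-type controls, library 3 stood above the others for Rpl21 (95.0 TPM, others 20.2 to 40.7) and Rpl4 (1109 TPM, others 532 to 666), library 4 for Rpl26 (785 TPM, others 576.5 to 624.8), and library 2 for Rpl3l (2.42 TPM, others at 0). Among wild-type TGF-β1 libraries, library 4 stood below the others for Rpl12 (87.3 TPM, others 111 to 114), Rpl38 (159 TPM, others 323 to 348) and Rplp2 (205 TPM, others 311 to 332). Among knockout controls, library 5 stood below the others for Rpl19 (705 TPM, others 1077 to 1147) and above them for Rpl27a (75.2 TPM, others 16.6 to 29.8).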

How the results depend on the processing

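The count of called genes stayed at 0 for TGF-β1 in wild type, TGF-β1 in knockout and the difference of effects under all 31 alternatives run. No median moved by over 0.27, the SD of library medians within groups, which is a wide limit beside the medians themselves. The median for TGF-β1 in knockout ran from -0.57 to -0.16 (main -0.42). That of the difference of effects ran from -0.44 to -0.10 (main -0.33). For knockout against wild type in controls, 3 became 1 with named -ps copies summed, 0 with all sequence copies and 1 without the 6 libraries with over 10% of genes at 10 to 50 TPM listed at 0, while a pseudocount of 10 gave 4 by adding Rpl21, and leaving out 1 library gave 3 to 4. For the same comparison under TGF-β1, 2 became 0 in a fit of the groups compared only, 1 with detected genes as covariate, 1 with named -ps copies, 1 with protein-coding genes alone, 0 with all sequence copies and 0 without the libraries with many zeros, and leaving out 1 library gave 0 to 2. Sums with copies changed the sign of some of these differences and not of others. In controls Rps2 became -0.046 with named -ps copies and -0.10 with all copies, Rpl3 0.061 and 0.062, and Rpl29 -0.030 with all copies, and under TGF-β1 Rps2 became -0.46 and -0.48. Summed TPM went from 3.30%, 3.20%, 3.49% and 2.73% to 4.17%, 4.001%, 4.40% and 3.41% with named -ps copies, and to 5.11%, 4.84%, 5.38% and 4.12% with all copies, in the order of the groups above. Leaving out 1 library gave 3.21% to 3.40%, 3.07% to 3.33%, 3.32% to 3.79% and 2.47% to 2.92%.

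Across all genes, calls ranged from 5 to 34 for TGF-β1 in wild type (main 22), 0 to 10 in knockout (main 1), 0 to 1 for the difference (main 0), 5 to 23 for knockout against wild type in controls (main 18) and 3 to 21 under TGF-β1 (main 19). Quantile normalization moved the median of all genes by -0.15 in wild type, -0.13 in knockout and -0.11 between genotypes in controls, and upper-quartile scaling by -0.10 in knockout. Relative to all genes, the ribosomal protein median was -0.19 for TGF-β1 in wild type (-0.21 with upper-quartile scaling, -0.08 with quantile normalization), -0.49 in knockout (-0.54 and -0.38) and -0.09 between genotypes in controls (-0.07 and 0.02, a change of sign).

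With the replicate number as a block, limma called 0 of 76 for TGF-β1 in wild type, 0 in knockout, 0 for the difference of effects and 3 between genotypes in controls, with medians of -0.15, -0.51, -0.37 and 0.02. Under TGF-β1 the block left 1 called between genotypes, with a median of -0.32. Same-numbered libraries correlated by -0.08 to 0.02 in their deviations from group means, so the numbers were not taken as pairs. The same-numbered library was the best match in 2 of 3 pairs for TGF-β1 in knockout and 1 of 3 between genotypes under TGF-β1. It was so in 0 of 4 for TGF-β1 in wild type and 0 of 5 between genotypes in controls. The alternatives summing all sequence copies and leaving out the libraries with many zeros were chosen after seeing the data. Depth cannot be read from TPM, so limits of detection for low genes are unknown.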
